A study of Schizosaccharomyces pombe with 37 samples.

Results

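The comparison described here sets fission yeast cells (*Schizosaccharomyces pombe*) that carry a phenylalanine-to-histidine change, F115H, in Pfs2 against wild-type cells, by sequencing of total RNA. Its members are the annotated features with a mean of at least 1 CPM (counts per 1e+06 reads of a library) over the 3 *pfs2-F115H* and the 3 wild-type libraries. These are 5911 of the 6996 features in the table. All strains of the series that are compared here were h- *leu1-32 ura4-D18 ade6-704* and carried an *ade6*+ reporter at the *trp1*+ locus, and all were grown exponentially in YES medium at 30 °C. The mutant strain carried in addition *pfs2-F115H* joined to the *kanMX* drug marker, which the wild-type strain lacked, so the point mutation and the marker cannot be told apart. Each genotype was 1 strain with 3 libraries numbered 1 to 3, and nothing in the labels says that these came from separate cultures. The p-values therefore measure the spread between libraries only. That spread was estimated over all 30 total RNA libraries of 10 strains. These include strains labelled *ssu72D*, *dis2D*, *ppn1D* and *swd22D*, deletions in the phosphatase module of the same complex, which are not compared here. For comparison, *yth1-R59C* affects another subunit of the same complex, and 3 strains (PAS-T4A, PAS-T4C and PAS-T4G) have wild-type subunits and a changed base in the polyadenylation signal of the reporter.

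The cleavage and polyadenylation factor (CPF) recognises the end of a nascent transcript, cuts it and adds the poly(A) tail, and this step is coupled to the release of RNA polymerase II. Pfs2 is a WD40-repeat protein that holds the poly(A) polymerase and nuclease modules of the complex together, and Yth1 is a zinc-finger subunit of the polymerase module that contacts the AAUAAA signal in the RNA. In *S. pombe* the same machinery acts on mRNAs, on antisense and intergenic noncoding RNAs, and on meiotic transcripts that vegetative cells eliminate. The reference genome places the codon concerned on chromosome I, in the coding sequence of *pfs2* (SPAC12G12.14c). Its surroundings on the coding strand are shown because they are what the mutant strain changes. They lie at chr1:320295-320339 of ASM294v3 (RefSeq), and the capitals mark the codon of F115H, which reads TTT in the reference.
pfs2 around F115H: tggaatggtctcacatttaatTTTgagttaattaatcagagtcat

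The libraries differed in depth. Between 3713098 and 6344396 reads were counted in the wild-type libraries and between 1306040 and 3777437 in those of *pfs2-F115H*, so that 3 reads corresponded to 0.473 to 0.808 CPM in the former and to at most 2.30 CPM in the latter. Such floors, and every interval that could be built on them, cover counting error only. Reads from the mitochondrial genome made up 10.8% to 11.9% of the wild-type libraries and 12.4% to 15.0% of the mutant ones, and the part of this in the results was not tested. The labelled mating type could not be settled from its markers. The transcripts of M cells were counted at 92.5 to 123 CPM for *mam1*, which exports the M-factor, but *mfm1* and *mfm3* were at or under 1.85 CPM, and *map3*, the M-factor receptor of P cells, was counted at 4.30 to 10.7 CPM in the same 6 libraries. The remaining markers, *mfm2* and *mam2* of M cells and *map2* of P cells, all reached the minimum mean of 1 CPM. None of them was called between the groups. In bulk RNA of this kind, fewer cells that express a gene and less RNA per cell cannot be told apart.

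RNA from *pfs2* itself was lower in the mutant. It was counted at 44.6, 45.7 and 37.2 CPM in the wild-type libraries and at 22.2, 26.9 and 20.9 CPM in the *pfs2-F115H* libraries. The groups did not overlap, and the mean fell from 42.5 ± 4.66 to 23.3 ± 3.15 CPM (SD, n = 3). On the scale of log2(CPM + 1), which is used for every fold change below, *pfs2* fell by 0.84 ± 0.13 (SE; limma adjusted p = 2.22e-05). In a limma fit of only the strains compared, the adjusted p was 0.00112. The exact permutation test over the 6 libraries, two-sided, gave p = 0.1, the smallest value that 3 against 3 allows. The *yth1-R59C* libraries held 40.2 to 45.3 CPM of *pfs2*. Downstream of *pfs2* on the same strand, and overlapping its annotated end, lies *cid14*, which encodes the poly(A) polymerase of the TRAMP complex. Its level was 186, 199 and 195 CPM in wild type and 288, 250 and 228 CPM in the mutant, higher in each mutant library (log2 fold change 0.39 ± 0.09, limma adjusted p = 0.00173). Other features around *pfs2* did not pass the test. Upstream, *sif3* had a log2 fold change of 0.20 (limma adjusted p = 0.277), its antisense RNA *sif3-antisense-1* one of 0.90 (adjusted p = 0.0878), and *gms2*, beyond *pfs2* on the other strand, one of 0.09 (adjusted p = 0.709).

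Across the 5911 features, 163 were called higher in *pfs2-F115H* (2.76%) and 29 lower (0.491%), where a call needs a Benjamini-Hochberg adjusted p under 0.05 in limma and a change of at least 2-fold. Noncoding RNA made up most of the rises: 112 of the 163 were antisense RNAs, other noncoding RNAs or small nucleolar RNAs. The falls included 4 genes of cell surface glycoproteins (*pfl3*, *pfl8*, *pfl9* and *gsf2*) and *guf1*. In 190 of the 192 features called (3.25% of those tested), the 3 mutant libraries all lay on one side of the 3 wild-type libraries, which was so for 37.1% of all features tested. Without a minimum change, 845 features had an adjusted p under 0.05 and were higher (14.3%), and 286 were lower (4.84%), which made 1131 (19.1%). The balance of rises and falls depended on the scaling. On the CPM scale the median log2 fold change over all features was 0.13, and with median-of-ratios scaling, which moves it to 0.00, the calls were 122 higher and 42 lower, and with quantile normalization 107 higher and 67 lower. Changes are therefore read below against the median of 0.13.

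**Figure D1:**
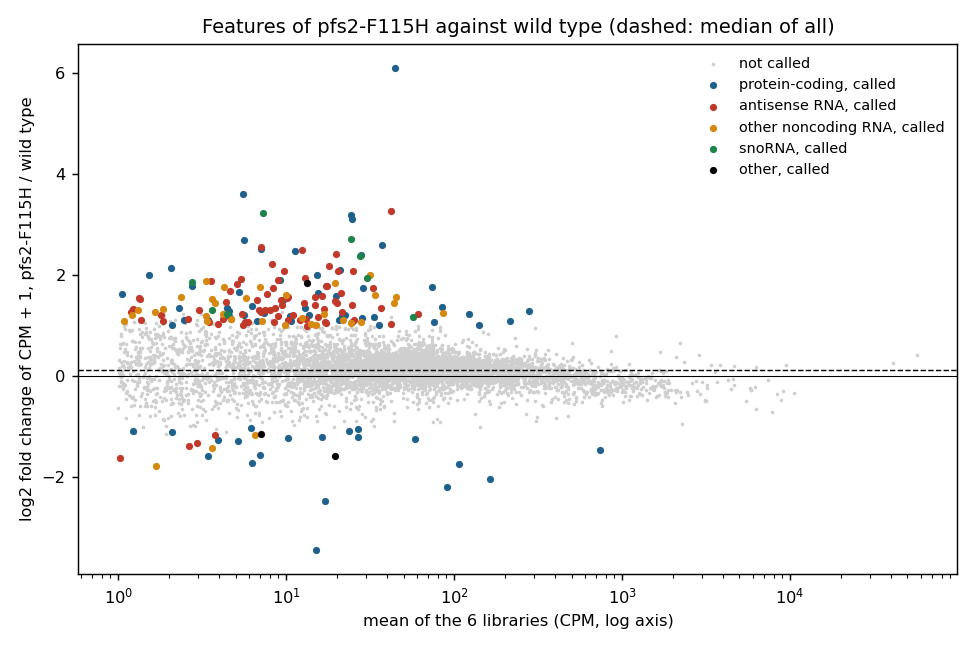
Log2 fold change of CPM + 1 in *pfs2-F115H* over wild type (y axis) against the mean of the 6 libraries in CPM (x axis, log scale) for the 5911 features. Grey points were not called, coloured points were called and are coloured by RNA class (black: classes with few members), and the dashed line marks the median of all features, 0.13. Most called features lie above the line and to the left, among features with few reads.

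The shallower depth of the mutant libraries bears on the weaker of these features, since 82 of the 163 features called higher had a mean under 10 CPM. The median level of the features called higher was 9.94 CPM, against 46.5 CPM over all features. With a minimum mean of 10 CPM in place of 1, 81 features were called higher and 13 lower.

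The share called higher differed by RNA class. It was 15.1% of the antisense RNAs (72 of 478), 18.6% of the small nucleolar RNAs (8 of 43), 7.27% of the other noncoding RNAs (32 of 440) and 1.02% of the protein-coding genes (50 of 4882), against 2.76% of all features. The counts include features that met the minimum mean through the mutant libraries alone and so could only be called higher. The median log2 fold change of the antisense RNAs was 0.44 and that of the protein-coding genes 0.11. After median-of-ratios scaling the median was 0.34 for the antisense RNAs and 54 of them were called higher, and after quantile normalization it was 0.24 with 46 called higher. For the other noncoding RNAs the median of 0.20 turned to −0.02 under quantile normalization, so no direction is given for that class as a whole. Antisense RNAs were counted at lower levels than mRNAs, with a median of 5.55 CPM against 61.5 CPM for protein-coding genes, at a median annotated length of 1640 against 1720 bases.

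**Figure D2:**
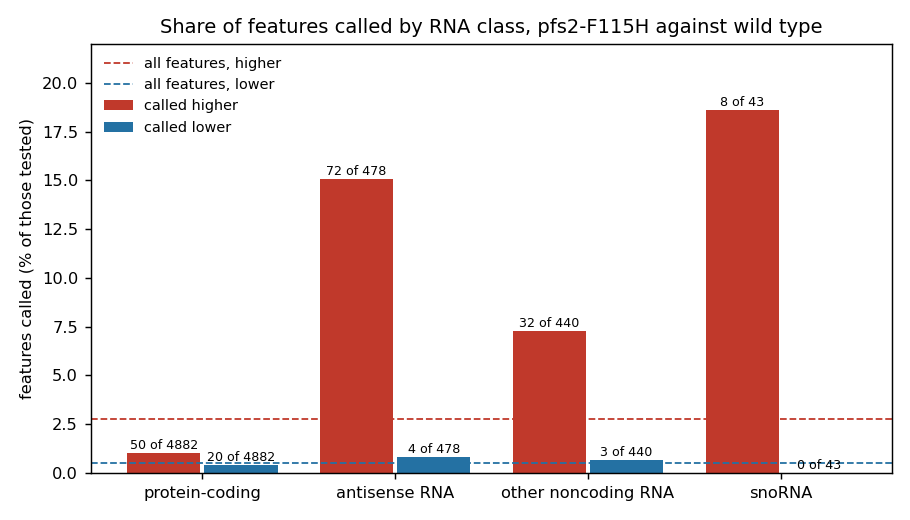
Features called higher (red) and lower (blue) in *pfs2-F115H*, as a percentage of the features tested in each of 4 RNA classes, with the counts above each bar. The dashed lines mark the shares over all features, 2.76% higher and 0.491% lower. Antisense RNAs and small nucleolar RNAs stand highest, and the protein-coding bar lies under the red line.

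The antisense RNA with the largest rise was *abc1-antisense-1* (SPNCRNA.1570), which runs across *abc1*, a gene of ubiquinone synthesis. It was counted at 7.52, 5.52 and 8.35 CPM in wild type and at 86.5, 66.7 and 76.8 CPM in *pfs2-F115H*. The mean rose 10.8-fold, far outside the spread of either group (log2 fold change 3.26 ± 0.24, limma adjusted p = 5.09e-12). The *yth1-R59C* libraries lay in between, at 16.9 to 27.8 CPM, and the difference of *pfs2-F115H* from them passed the test (log2 fold change 1.75, limma adjusted p = 1.02e-05). RNA from the sense gene *abc1* fell from 81.8 ± 7.14 to 59.2 ± 9.90 CPM (SD, n = 3; fell by 0.47 on the log2 scale, limma adjusted p = 0.00359), which is under the 2-fold minimum of a call.

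At *guf1*, which encodes a GTPase of mitochondrial translation, sense and antisense RNA moved in opposite directions. *SPAC1B3.04c-antisense-2*, which covers nearly all of the gene on the other strand, had 1.5, 1.73 and 0.808 CPM in wild type and 12.3, 15.6 and 10.6 CPM in the mutant. *guf1* itself had 27.3, 27.7 and 32.9 CPM in wild type and 6.13, 4.84 and 2.91 CPM in the mutant. The antisense RNA rose 9.50-fold (log2 fold change 2.56 ± 0.35, limma adjusted p = 1.97e-06) and *guf1* fell 6.34-fold (log2 fold change −2.47 ± 0.20, limma adjusted p = 5.91e-11). In *yth1-R59C* *guf1* stood at 12.9 to 20.1 CPM, between the other groups, and *pfs2-F115H* was lower than it (log2 fold change −1.58, limma adjusted p = 2.91e-06).

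The opposite movement at *guf1* was the exception among antisense pairs. Of the 69 antisense RNAs called higher whose sense gene was also tested, the sense gene was called lower for 1 (*guf1*), higher for 1 (*num1*) and not called for the other 67. By the adjusted p alone, 10 of the 69 sense genes were higher and 4 lower, near the 14.3% and 4.84% of all features. The median log2 fold change of these sense genes was 0.09, beside 0.15 for the sense genes of the 363 antisense RNAs that were not called and 0.13 for all features. Reads were counted by strand with a strand-marking kit, so the strands of a pair were counted apart.

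**Figure D3:**
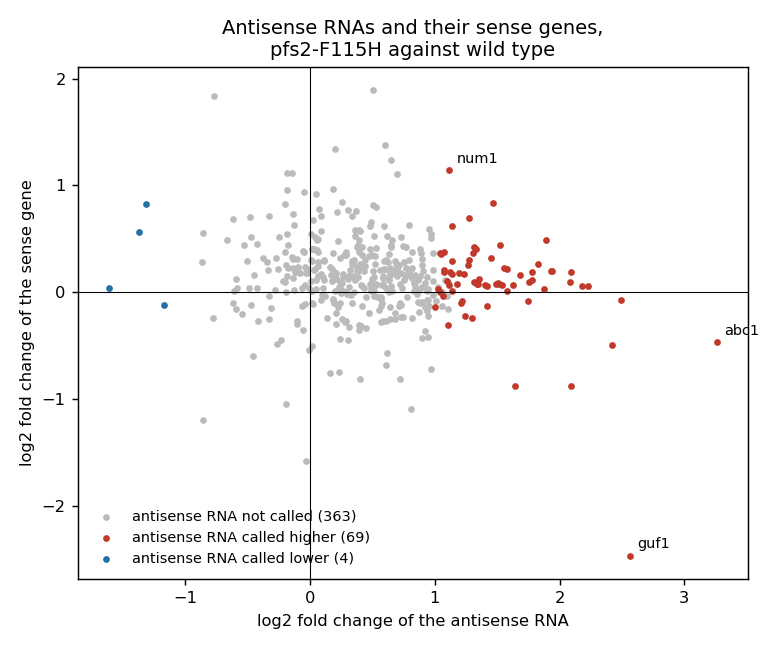
Log2 fold change of CPM + 1, *pfs2-F115H* over wild type, of 436 antisense RNAs (x axis) and of the gene on the opposite strand (y axis), with antisense RNAs coloured red where called higher, blue where called lower and grey where not called. Most red points lie near the horizontal zero line; *guf1* (antisense 2.56, sense −2.47) stands apart at the lower right.

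Small nucleolar RNAs guide the modification of ribosomal and spliceosomal RNA, those of the box H/ACA family pseudouridylation and those of the box C/D family 2′-O-methylation. The most strongly raised of each family are shown with letters of its motifs in capitals. Marked are the ACA before the 3′ end of snR36, and in sno52 and snR51b the C-box letters TGATGA. Every match to CTGA, the letters of the D box, is also marked in the latter RNAs, whether or not it is the D box. TGATGA and CTGA also occur in snR36 and were not marked there, so these letters alone do not place an RNA in a family. In the order shown, the RNAs lie at chr2:1957286-1957449 on the minus strand, chr1:339548-339642 on the minus strand and chr1:1200646-1200729 on the plus strand of ASM294v3, and the sequences are from RefSeq.
snR36: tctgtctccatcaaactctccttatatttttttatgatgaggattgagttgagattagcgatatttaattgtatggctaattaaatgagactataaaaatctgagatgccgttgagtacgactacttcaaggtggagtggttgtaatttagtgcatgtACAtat
sno52: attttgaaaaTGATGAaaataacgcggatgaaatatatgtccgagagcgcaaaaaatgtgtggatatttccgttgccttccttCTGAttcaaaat
snR51b: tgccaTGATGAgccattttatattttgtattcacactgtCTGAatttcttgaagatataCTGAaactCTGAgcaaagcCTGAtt

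snR36 was counted at 0.251, 0.788 and 0.808 CPM in wild type and at 13.8, 16.1 and 12.2 CPM in the *pfs2* mutant (log2 fold change 3.23 ± 0.41, limma adjusted p = 6.99e-07). It met the minimum mean of 1 CPM through the mutant libraries alone, so it could only be called higher. sno52 had 7.02, 9.30 and 8.08 CPM in wild type and 53.6, 50.0 and 36.5 CPM in the mutant (log2 fold change 2.37 ± 0.26, limma adjusted p = 3.32e-08). Neither pair of groups overlapped. snR51b had 8.28, 1.73 and 7.54 CPM in wild type and 52.8, 55.4 and 19.3 CPM in the mutant, with library 3 well under the other two (log2 fold change 2.72 ± 0.51, limma adjusted p = 0.000261). The other small nucleolar RNAs called higher were snR90 (12.3 to 47.9 CPM, as group means), snR46 (34.6 to 79.7 CPM), snR33 (2.29 to 6.64 CPM), SPNCRNA.1650 (0.526 to 4.95 CPM) and SPNCRNA.1709 (1.70 to 5.55 CPM). SPNCRNA.1650, like snR36, met the minimum mean through the mutant libraries alone. None of the 43 was called lower, and their median log2 fold change was 0.16, beside 0.13 for all features. The count of 8 fell to 4 with a minimum of 10 CPM, which leaves 20 of the 43, and to 5 with a pseudocount of 4. The 43 RNAs have a median length of 128 bases, and whether the reads came from the mature RNAs or from longer transcripts that cover them was not tested.

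Some of these small nucleolar RNAs lie just downstream of an mRNA gene. For 7 of the 8 called higher, the nearest annotated feature upstream was on the same strand (87.5%, against 58.1% of all 43). sno52 follows *mcp60*, a mitochondrial chaperonin gene, after 123 bases, snR33 follows *gfa1*, a gene of hexosamine synthesis, after 43 bases, and SPNCRNA.1709 follows *rpc10*, a gene of an RNA polymerase subunit, after 31 bases. The stretches between these annotated features are printed on the transcribed strand, to show the distance that separates the end of one from the start of the next. They were searched for the signal AATAAA on this strand only, and any match would be in capitals. The last one, between the calcium ATPase gene *pmc1* and *cig2-antisense-1*, is the only one of the 4 that holds the letters. In order they lie at chr1:339643-339765 (minus), chr2:2448049-2448091 (minus), chr2:1676189-1676219 (plus) and chr1:2712635-2712703 (minus) of ASM294v3 (RefSeq).
mcp60 to sno52: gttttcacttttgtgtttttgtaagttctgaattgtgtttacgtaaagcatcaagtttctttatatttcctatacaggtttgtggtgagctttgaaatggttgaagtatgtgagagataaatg
gfa1 to snR33: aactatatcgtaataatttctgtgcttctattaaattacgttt
rpc10 to SPNCRNA.1709: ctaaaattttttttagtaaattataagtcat
pmc1 to cig2-antisense-1: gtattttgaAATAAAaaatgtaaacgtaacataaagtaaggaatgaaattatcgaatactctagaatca

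The mRNAs upstream of these 4 features were themselves higher, though by less than 2-fold. These 4 pairs were picked after their values were seen and do not stand for the rest. Of all 43 tested same-strand upstream neighbours within 500 bases of features called higher, 10 were higher and 5 lower by adjusted p alone. *mcp60* was at 1.30 times its wild-type mean (log2 fold change 0.38, limma adjusted p = 8.05e-05) and *gfa1* at 1.44 times (0.52, adjusted p = 1.31e-06). *rpc10* was at 1.81 times (0.83, adjusted p = 0.000558) and *pmc1* at 1.52 times (0.59, adjusted p = 3.73e-05). The RNA downstream rose more in each case, but the choice of pairs fixed this. Each downstream RNA had been called at 2-fold or more and the mRNA had not. *cig2-antisense-1* had 2.76, 2.52 and 1.35 CPM in wild type and 9.19, 19.4 and 14.3 CPM in the mutant, a 6.47-fold rise of the mean (limma adjusted p = 2.30e-06). Other features in this position did not share the upstream rise. *SPAC5H10.04*, annotated as an NADPH dehydrogenase, lies 477 bases after *SPAC5H10.03* on the same strand and went from 12, 7.41 and 5.92 CPM to 48.2, 47.9 and 45.8 CPM (limma adjusted p = 9.98e-08), while *SPAC5H10.03* fell by 0.43 (limma adjusted p = 0.00178). The small nucleolar RNA snR70, upstream of snR51b, had a log2 fold change of −0.15 (adjusted p = 0.811).

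Position was then counted over all features. Of the 160 features called higher that have an annotated neighbour, 84 had the nearest upstream feature on the same strand (52.5%, against 46.7% of all tested). It lay within 500 bases for 50 of the 160 (31.2%, against 31.1%), so the rises as a whole did not differ in this. The classes differed. For 35 of the 50 protein-coding genes called higher (70.0%) the nearest upstream feature was on the same strand, against 48.0% of all protein-coding genes tested. It lay within 500 bases for 22 of the 50 (44.0%), against 33.1%. Among the antisense RNAs called higher the share was 37.5%, against 41.2% of all antisense RNAs, but 18 of the 72 overlapped a feature that began upstream on the same strand, against 58 of the 478 tested. The median log2 fold change of all protein-coding genes with an upstream neighbour on the same strand was 0.11, as it was with one on the other strand. Of the 43 tested upstream neighbours of features called higher, on the same strand and within 500 bases, 10 were higher and 5 lower by adjusted p alone. The share of higher neighbours was 23.3%, beside 14.8% for the neighbours of all tested features in this position. The letters AATAAA, searched on the transcribed strand only, stood in the last 60 bases of 19.2% of all protein-coding features, 20% of those called higher and 30.0% of those called lower (6 of 20). Among protein-coding neighbours upstream on the same strand and within 500 bases, 26.2% of those of features called higher held them (11 of 42), against 16.8% of those of all tested features.

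The nuclease module of CPF held the 1 subunit gene that was called higher than in wild type. *mpe1*, whose product binds RNA in that module, had 160, 159 and 164 CPM in wild type and 371, 405 and 417 CPM in *pfs2-F115H*. The groups were far apart, with a 2.47-fold rise of the mean (log2 fold change 1.30 ± 0.07, limma adjusted p = 6.31e-15). In *yth1-R59C* *mpe1* stood at 326 to 369 CPM, and its difference from *pfs2-F115H* was 0.20 on the log2 scale (limma adjusted p = 0.159), whereas in the 9 PAS libraries it lay at 152 to 178 CPM. Of the other 8 genes of the polymerase and nuclease modules none was called against wild type, although *cft1* (0.20, limma adjusted p = 0.0318) and *pta1* (0.26, adjusted p = 0.0249) passed without the 2-fold minimum, as did *pfs2* in the other direction. Against the PAS mutants 2 of the 9 genes were called higher, *mpe1* and *yth1* (1.02, limma adjusted p = 5.27e-05). *yth1* had 0.24 against wild type (adjusted p = 0.485). None of the 4 phosphatase module genes had an adjusted p under 0.05 against wild type. Of the 12 genes of the RNAi pathway none was called, and 5 were higher by adjusted p alone (14.3% of all features were), among them *stc1* (0.94), which links RNAi to heterochromatin, and *hrr1* (0.67), a helicase of the RNA-dependent RNA polymerase complex.

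The reporter gene *ade6* did not differ beyond the spread of the libraries: it had 376, 424 and 412 CPM in wild type and 396, 379 and 423 CPM in the mutant (log2 fold change −0.02, limma adjusted p = 0.894). The reads of the reporter and of the *ade6-704* allele at its own locus were counted together. The actin gene *act1* had a log2 fold change of 0.22 (limma adjusted p = 0.0437), and the lysine synthesis gene *lys4* fell by 0.39 (adjusted p = 0.00306).

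**Figure D4:**
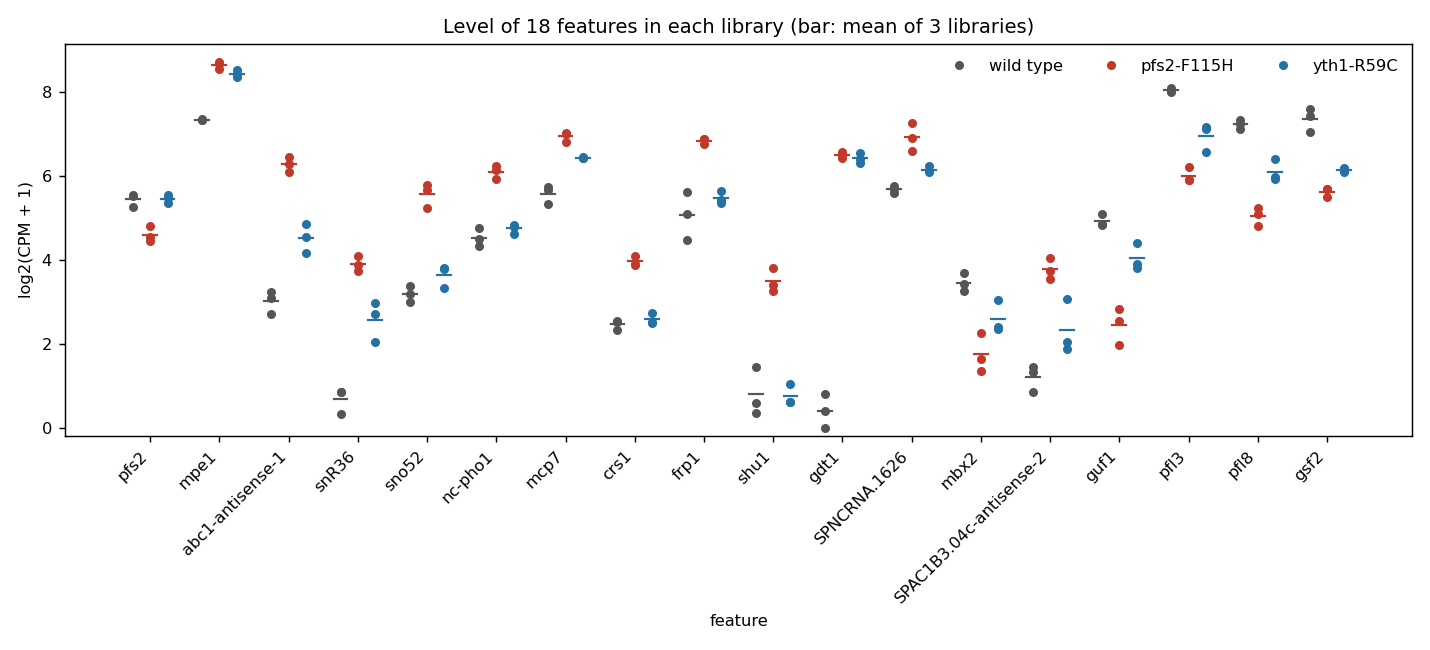
Level of 18 features, as log2(CPM + 1), in each of the 3 libraries of wild type (grey), *pfs2-F115H* (red) and *yth1-R59C* (blue), with a bar at each mean. For *mpe1* and *gdt1* the red and blue points lie together above the grey; for *shu1* the blue points lie with the grey, at up to 1.06 CPM, while the red ones reach 13.0 CPM.

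Several meiotic transcripts that vegetative cells degrade through the RNA-binding protein Mmi1 were higher. Of the 15 tested members of a list of Mmi1 targets, 5 were called higher and 0 lower (33.3% higher, beside 2.76% of all features), and the median log2 fold change was 0.80. *mcp7*, which acts in meiotic recombination, had 49.4, 51.9 and 39.1 CPM in wild type and 126, 128 and 112 CPM in *pfs2-F115H*, with no overlap (log2 fold change 1.37 ± 0.14, limma adjusted p = 1.18e-08). *crs1*, a meiotic cyclin gene, had 4.01, 4.73 and 4.85 CPM in wild type and 13.8, 16.1 and 14 CPM in the mutant (1.5 ± 0.36, adjusted p = 0.00287). *crs1* was at 4.63 to 5.66 CPM in *yth1-R59C*, and the mutants differed from each other (1.38, limma adjusted p = 0.0252). The others called were *mei4*, a forkhead transcription factor of meiosis (15.5 ± 2.11 to 33.6 ± 4.83 CPM, SD, n = 3), *num1*, which anchors dynein (17.3 ± 3.40 to 39.1 ± 3.87 CPM), and *meu32* (2.91 ± 1.33 to 8.29 ± 3.70 CPM). Of 22 genes for Mmi1 itself, its partners and the exosome none was called, and their median log2 fold change was 0.13. The count of 5 fell to 3 under median-of-ratios scaling, with edgeR, with a minimum of 10 CPM, with a pseudocount of 4 and without wild-type library 3, and to 2 under quantile normalization. It rose to 7 without *pfs2-F115H* library 3.

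Meiotic features outside that list were also among those called. They were picked after their values were seen. *rec15*, needed for meiotic DNA breaks, had 0.251, 0.788 and 1.08 CPM in wild type and 5.36, 3.77 and 5.29 CPM in the mutant (log2 fold change 1.79, limma adjusted p = 0.00622). Its wild-type mean was under the minimum of 1 CPM, so it could only be called higher. The noncoding RNA *sme2*, which binds Mmi1 and Mei2 at its own locus in meiosis, went from 2.04 to 6.41 CPM (adjusted p = 0.00872) and *omt3*, another noncoding RNA of meiotic RNA foci, from 4.34 to 15.5 CPM (adjusted p = 0.00107). The septin gene *spn5* had a log2 fold change of 1.35 (adjusted p = 0.00872) and *mcp6*, of horsetail movement, one of 1.38 (adjusted p = 0.00153). Of 12 tested mating genes none was called, and their median was 0.21.

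The falls included flocculins, cell surface glycoproteins that hold cells together, and a regulator of theirs. Of 11 tested members of the list, 5 were called lower (45.5%, beside 0.491% of all features) and none higher. *pfl3* had 259, 272 and 255 CPM in wild type and 72.7, 58.6 and 58.8 CPM in the *pfs2* mutant (log2 fold change −2.04 ± 0.29, limma adjusted p = 3.58e-06). *pfl8* had 149, 137 and 161 CPM against 36.8, 32.8 and 27.0 CPM (−2.18 ± 0.19, adjusted p = 3.51e-10), and *gsf2*, the flocculin that binds galactose, 193, 131 and 171 CPM against 44.4, 50.6 and 50.3 CPM (−1.73 ± 0.24, adjusted p = 2.37e-06). In all 3 genes every mutant library lay under every wild-type library. *pfl9* fell furthest of all features, from 33.6, 20 and 31.2 CPM to 1.53, 2.15 and 1.32 CPM (−3.43 ± 0.40, adjusted p = 1.33e-07). The other 6 members, among them *pfl2* (0.39) and *pfl4* (−0.27), did not pass the test, and the median over the 11 was −0.27. The same 5 members were at 1.54 to 143 CPM over the *yth1-R59C* libraries, a range that pools genes of unlike level. Of the 5 members *pfl8* was called lower in *pfs2-F115H* than in *yth1-R59C* (−1.05, adjusted p = 0.000804). The differences of *pfl3* (−0.95, adjusted p = 0.067), *gsf2* (−0.52, adjusted p = 0.297), *mbx2* (−0.84, adjusted p = 0.23) and *pfl9* (−0.33, adjusted p = 0.763) did not pass. For each of the 5, the difference from *yth1-R59C* was smaller than the fall against wild type. The mean log2 level in *yth1-R59C* therefore also lay under that of wild type, and that difference was not tested here.

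The regulator among the 5 was *mbx2*, which encodes a MADS-box transcription factor that activates flocculin genes. It had 8.53, 9.77 and 11.8 CPM in wild type and 1.53, 3.77 and 2.12 CPM in the mutant (log2 fold change −1.71 ± 0.34, limma adjusted p = 0.000559). A noncoding RNA on the opposite strand, *SPNCRNA.1626*, runs across the whole of *mbx2*, from 3626024 to 3631136 on chromosome II, while *mbx2* lies from 3626639 to 3628658. It moved the other way, from 53.4, 50.3 and 46.9 CPM to 153, 119 and 96.1 CPM, with no overlap (log2 fold change 1.25 ± 0.17, limma adjusted p = 1.56e-06). It was also higher in *pfs2-F115H* than in *yth1-R59C* (0.78, adjusted p = 0.00515). *SPNCRNA.1626* is not named an antisense RNA in the annotation and was picked here after its values and those of *mbx2* were seen.

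**Figure D5:**
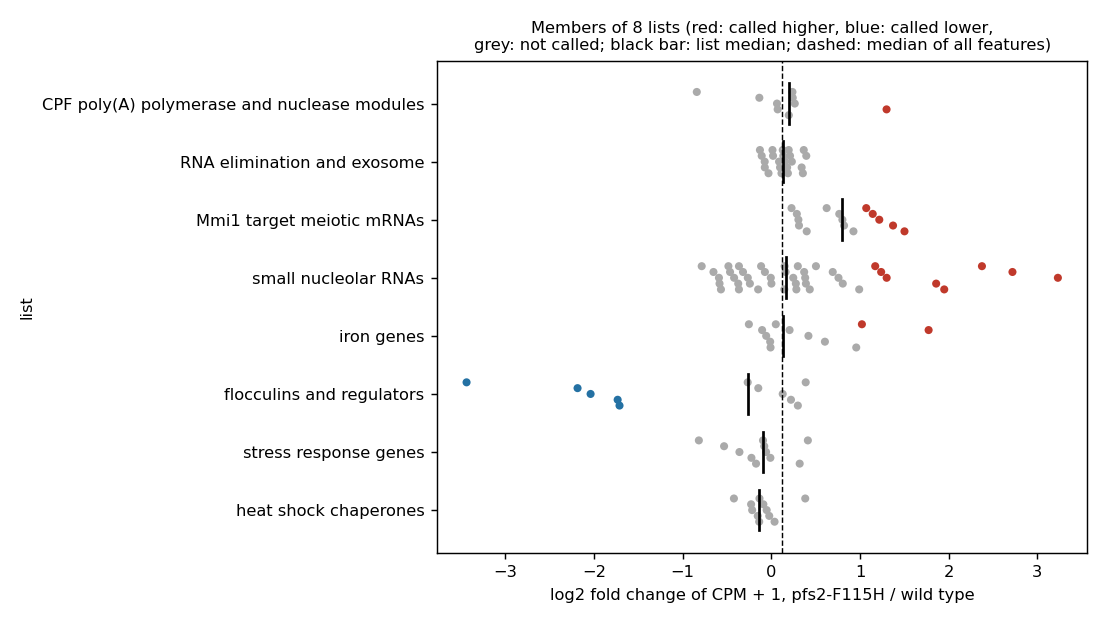
Log2 fold change of CPM + 1 in *pfs2-F115H* over wild type (x axis) of each tested member of 8 gene lists (y axis), with a black bar at each list's median and a dashed line at the median of all features, 0.13. Red members were called higher, blue ones lower and grey ones neither. The flocculin list reaches −3.43 and the Mmi1 target list has its median at 0.80, while the exosome list lies around the dashed line.

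Among genes of iron uptake some members were higher, while the median of the group did not differ from that of all features. Of 12 tested iron genes 2 were called higher (16.7%, beside 2.76% of all features) and the median was 0.13, that of all features. By adjusted p alone 4 of the 12 were higher and 0 lower, where 14.3% and 4.84% of all features were. These 4 include *fio1* (0.96, limma adjusted p = 0.000936) and *fip1* (0.60, adjusted p = 0.0459), which were under the 2-fold minimum. *frp1*, a ferric reductase, had 21.3, 48.2 and 33.1 CPM in wild type and 116, 116 and 108 CPM in the mutant (log2 fold change 1.77 ± 0.26, limma adjusted p = 6.04e-06). *str3*, a transporter of iron chelates, had 58.2, 147 and 84.0 CPM and 218, 169 and 166 CPM. Its call (1.02, limma adjusted p = 0.022) was lost with DESeq2 (adjusted p = 0.162) and edgeR (adjusted p = 0.0678). Without wild-type library 1 or 3 or *pfs2-F115H* library 1 the adjusted p was 0.159, 0.0767 or 0.114, and its difference from the PAS mutants did not pass (adjusted p = 0.233). Outside the list, *shu1*, a cell surface protein of heme uptake that lies next to *str3*, had 0.502, 1.73 and 0.269 CPM in wild type and 13.0, 8.61 and 9.53 CPM in the mutant (2.7 ± 0.39, adjusted p = 7.46e-06). It was at most 1.06 CPM in *yth1-R59C* and at most 1.59 CPM in the PAS libraries. The wild-type mean of *shu1* was under the minimum of 1 CPM, so it could only be called higher. *hem14*, of heme synthesis, fell from 82.7 ± 8.10 to 34.9 ± 6.24 CPM (SD, n = 3; adjusted p = 1.50e-08), and was lower still in *yth1-R59C*, at 21.2 to 27.3 CPM.

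In nitrogen and phosphate metabolism single features stood out. The ammonium transporter gene *amt3* had 3.51, 2.99 and 3.23 CPM in wild type and 16.1, 10.8 and 18.5 CPM in the mutant (log2 fold change 1.89 ± 0.32, limma adjusted p = 6.41e-05), and it was the only one called of 9 nitrogen-responsive genes (11.1%, beside 2.76% of all features). *gdh2*, the NAD-dependent glutamate dehydrogenase gene, fell from 1077 to 403 CPM (−1.46 ± 0.16, adjusted p = 5.93e-08), with 289, 386 and 533 CPM in the 3 mutant libraries and at least 995 CPM in each wild-type library. The noncoding RNA *nc-pho1*, known as *prt*, is transcribed across the promoter of the acid phosphatase gene *pho1* and represses it. It had 26.1, 19.1 and 21.5 CPM in wild type and 68.9, 73.7 and 60.1 CPM in *pfs2-F115H* (1.57 ± 0.18, adjusted p = 9.12e-08), but 23.7 to 27.5 CPM in *yth1-R59C*, and the difference between the mutants passed the test (1.35, adjusted p = 6.88e-06). *pho1* overlaps *nc-pho1* on the same strand and is listed at 0 in all 6 libraries, as is *pho84*. Reads in more than 1 feature were left out of the counts, so a value of 0 at overlapping features does not show that the gene was silent. None of the 7 tested members of the phosphate list was called, and the polyphosphate synthase gene *vtc4* fell by 0.80 (adjusted p = 8.95e-11).

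Housekeeping groups moved by less than the 2-fold minimum of a call. Of 145 ribosomal protein genes none was called, but 76 were lower by adjusted p alone (4.84% of all features were), with a median log2 fold change of −0.24 beside 0.13 for all features. Against the PAS mutants their median was 0.02. Of 10 purine synthesis genes 6 were lower by adjusted p alone, against the same 4.84%, with a median of −0.21. None was called among 10 histone genes (median 0.00), 11 heat shock chaperone genes (−0.13), 11 stress response genes (−0.09), 10 hexose transporter and glucose-repressed genes (−0.30), 6 thiamine genes (−0.07), 11 heterochromatin factors (0.24), 9 heterochromatin antagonists (0.09) and 9 termination factors outside CPF (0.14). By adjusted p alone, 3 chaperone genes were lower and 1 higher. So were 3 heterochromatin factors and 3 termination factors in the upward direction only, where 14.3% of all features were higher. Of the histone genes 1 was higher, of the stress response genes 1 was lower, and the other lists had 0.

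Several of the largest rises were in genes of little known function. *SPCC737.04* had 3.76, 4.41 and 3.50 CPM in wild type and 55.1, 45.2 and 33.1 CPM in the mutant, an 11.4-fold rise (limma adjusted p = 2.74e-09). The catechol O-methyltransferase gene *cmt2*, which lies within 100 kb of an end of chromosome II, had 3.51, 4.89 and 4.04 CPM and 62.0, 44.6 and 28.6 CPM (10.9-fold, adjusted p = 5.56e-10). *SPBC19C7.04c* went from 10.3 ± 4.12 to 64.2 ± 8.30 CPM (SD, n = 3; adjusted p = 5.33e-10). All 3 were higher than in *yth1-R59C* as well, by 2.67, 2.41 and 1.81 on the log2 scale (limma adjusted p at most 4.11e-06). Falls of the same kind were *grt1*, a transcription factor gene (5.69 to 1.13 CPM, adjusted p = 0.00344), and *SPBC460.05*, whose identifier has no match in the reference annotation. *SPBC460.05* had 33.9, 30.3 and 25.6 CPM in wild type and 9.19, 11.3 and 7.68 CPM in the mutant, against 30.6 to 41.7 CPM in *yth1-R59C*. Among noncoding RNAs, *cph1-antisense-1* had 0 reads in all 3 mutant libraries and 29 in the wild-type ones, which makes it at least 4.78-fold lower against a floor of 3 reads over the mutant group (limma adjusted p = 0.00504). It met the minimum mean of 1 CPM through the wild-type libraries alone, so it could only be called lower. *SPNCRNA.178* went from 3.01, 2.84 and 3.50 CPM to 0.766 CPM in 1 mutant library and 0 in the others (adjusted p = 0.00144). It too met the minimum mean through the wild-type libraries alone.

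Features near chromosome ends were called in both directions. Within 100 kb of an end, 16 of 155 features were higher (10.3%) and 7 lower (4.52%), against 2.76% and 0.491% of all features, and the median log2 fold change of the 155 was 0.12. The shares differed by chromosome: 15% higher and 7.5% lower of 40 features on chromosome I, 21.9% and 9.38% of 32 on chromosome II, but 3.61% and 1.2% of 83 on chromosome III. The largest rise in the comparison lay near an end of chromosome I, at *gdt1*, a gene for a GDT1-like membrane protein. It had 3, 2 and 0 reads in the wild-type libraries (0.752, 0.315 and 0 CPM) and 88.8, 84.5 and 94.2 CPM in *pfs2-F115H*. Its neighbour *SPAC186.06* had 0 reads in all wild-type libraries and 10.7, 12.9 and 9.79 CPM in the mutant, at least 52.2-fold higher against a floor of 3 reads over the wild-type group. *SPAC186.04c* and *SPAC750.01*, in the same stretch, also had 0 wild-type reads, while *pfl9* on its other side was among the falls. Features with 0 wild-type reads, and *gdt1*, met the minimum mean of 1 CPM through the mutant libraries alone, so they could only be called higher. *gdt1* was also counted at 78.7 to 92.3 CPM in *yth1-R59C*, and at 0 to 83.0 CPM with a median of 51.5 CPM in the 9 PAS libraries, whose CPF is wild type. Against the PAS mutants *gdt1* had an adjusted p of 0.0476 in limma and *pfl9* one of 1.77e-05 (log2 fold change −1.97). In that comparison 16 of the 155 features near chromosome ends were called higher and 5 lower, against 3.87% and 0.44% of all features. By chromosome, 3 were higher and 2 lower on chromosome I, 8 and 3 on chromosome II, and 5 and 0 on chromosome III.

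The PAS mutants gave a second set of strains with wild-type CPF, in a comparison that uses none of the wild-type libraries but the same *pfs2-F115H* libraries. Against their mean, 229 features were called higher (3.87%) and 26 lower (0.44%). The 229 and 26 made 4.31% in either direction, and by adjusted p alone 26.5% were higher and 8.66% lower, or 35.1% in all. Quantile normalization gave 123 higher and 62 lower. Since both comparisons rest on the same mutant libraries, the values are given side by side and no overlap is read from them. Of the antisense RNAs 98 of 478 were called higher in this comparison (20.5%), with a median log2 fold change of 0.50 beside 0.13 for all features. Of the small nucleolar RNAs 15 of 43 were (34.9%), with a median of 0.52. Of the Mmi1 targets 5 of 15 were called higher against the PAS mutants and of the flocculin list 5 of 11 were called lower.

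The difference between *pfs2-F115H* and *yth1-R59C* was tested directly. In *pfs2-F115H* 26 features were higher than in *yth1-R59C* (0.44%) and 10 lower (0.169%), which were 36 of the 5911 (0.609%). By adjusted p alone 1.51% were higher and 0.947% lower, or 2.45% in all. No overlap with the calls against wild type is read from this, since both comparisons use the same *pfs2-F115H* libraries. A feature that did not pass this test is not thereby shown to be alike in both strains. The count of 36 fell to 22 without *pfs2-F115H* library 1, to 25 without its library 2, and to 23 without *yth1-R59C* library 1 or library 2.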

How the data were processed

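Total RNA was sequenced as single-end reads of 50 bases from strand-marked libraries. Per the submitters' processing notes and the study's methods, the authors aligned reads with STAR (version 2.7.3a) to build ASM294v2, counted uniquely mapping reads per feature by strand with featureCounts, left out reads in more than 1 feature, and deposited CPM. In all 30 libraries 100% of the deposited CPM values were whole multiples of 1 read (tolerance 0.01), so reads were recovered. No column was left unused. A single limma fit (version 3.58.1, R 4.3.3) to log2(CPM + 1) took in the 30 libraries of 10 strains, without a replicate block. The prior variance followed the mean level, and p-values were adjusted over all 5911 features (Benjamini-Hochberg). edgeR (version 4.0.16, quasi-likelihood) and DESeq2 (version 1.42.0) were run on the recovered reads as alternatives. The fit was also run on simulated counts, and no result given here rests on that run. Other alternatives were pseudocounts of 0.1 and 4, no filter, a minimum of 10 CPM, other scalings, a fit over the compared strains, a replicate block and leaving out each library. Positions and sequences come from the ASM294v3 annotation (RefSeq), matched by identifier for 5853 of the 5911 features; the files hold no coordinates. Upstream and downstream neighbours were sought among features of the table that do not overlap. Named features were *pfs2* and its neighbours, *ade6*, *act1*, *lys4*, called members of the lists, the 10 largest rises and 10 largest falls without overlap of libraries, and the 5 largest rises with a same-strand upstream neighbour within 500 bases; all other named features were picked once their values had been seen. The members and lists were chosen with earlier results of these data known. Called antisense and noncoding RNAs beyond the largest changes are given as counts. Small RNA libraries were not used here.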

Additional observations from a re-analysis of the deposited data

How the results depend on the processing

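Against wild type (192 features called, 163 higher and 29 lower), a minimum mean of 10 CPM gave 94 (81 higher, 13 lower) and a pseudocount of 4 gave 95 (83 and 12). Without a minimum change 1131 passed (845 higher, 286 lower). Quantile normalization gave 107 higher and 67 lower, and edgeR's quasi-likelihood test on the recovered reads called 223, of which 49 were lower; the cause was not tested. Against the PAS mutants 4.31% of the features tested were called, and the minimum of 10 CPM gave 2.4%, the pseudocount of 4 gave 1.96% and no minimum change 35.1%. Against *yth1-R59C* (36) the same 3 settings gave 19, 23 and 145. Leaving out each *pfs2-F115H* or compared library in turn gave 155 to 227 features against wild type (132 to 186 higher, 23 to 41 lower), 4.01% to 4.91% of features against the PAS mutants and 22 to 40 against *yth1-R59C* (22 without *pfs2-F115H* library 1, 23 without *yth1-R59C* library 1 or 2). The fits without a *yth1-R59C* or PAS library were chosen after seeing the data. The log2 fold change of *pfs2* lay between −0.94 and −0.77 in these fits, and between −1.05 and −0.77 over the other settings. For 75 features followed one by one, 1171 values under other settings were computed, of which 53 lost the call, 1 gained it and 0 reversed it; *spn6*, *meu32* and *str3* lost it most often.

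The labels give the groups the same replicate numbers, but same-numbered libraries did not deviate together (correlations −0.01, −0.02 and 0.00), so the numbers do not pair them. With a replicate block 191 features were called against wild type (162 higher, 29 lower), 4.31% of features against the PAS mutants and 35 against *yth1-R59C*, and *pfs2* kept a log2 fold change of −0.84. Depth limits the features near 1 CPM, where 3 reads in the shallowest mutant library are worth 2.30 CPM.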
